A study of Homo sapiens with 6 samples.

Results

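The renal lineage transcription factors described here were PAX2, PAX8, HNF4A, HNF4G, LHX1, WT1, EMX2 and ZNF704, chosen by gene symbol from a table of read counts for 19009 genes. Of these 8 genes, 7 were read from the table, and HNF4A was not analysed here. Messenger RNA had been sequenced from RCC10, an established human line of clear cell renal carcinoma without functional VHL, in 3 groups of 2 libraries. HIF double-knockout cells had received lentiviral guide RNAs against HIF-1alpha and HIF-2alpha and puromycin selection. VHL-restored cells had received a lentivirus that carries VHL, and parental cells are labelled as the control. All were grown in DMEM with serum, and the labels name no group with a non-targeting guide or an empty vector, so effects of lentivirus or selection and effects of the engineered genes cannot be told apart. The sources used here do not give whether the double-knockout cells were 1 clone or a pool. They also do not say that libraries of a group are separate cultures, so p-values cover only the variation between libraries, and that may be technical.

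PAX2 and PAX8 are paired box factors that act together, and partly in place of each other, in the early nephric lineage. PAX8 stays on in mature tubule cells and in most renal carcinomas, where pathologists stain for it. LHX1 is a LIM homeodomain factor needed for the nephric duct in mice, WT1 is a zinc finger factor of nephron progenitors and podocytes that is mutated in some Wilms tumours, and EMX2 is a homeodomain factor without which mice form no kidneys. HNF4A and HNF4G are nuclear receptors of related sequence that switch on genes of tubule, gut or liver epithelium, and ZNF704 is a zinc finger factor related in sequence to ZNF395. VHL marks the HIF alpha subunits for degradation, so cells without it keep HIF active in the presence of oxygen.

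Total counts ranged from 22248126 to 29929116 per library, and the test covered the 18273 genes that had any count, all 7 factors among them. EPAS1, the gene of HIF-2alpha, had a mean of 46.2 CPM (counts per 1000000 of the scaled library) in double-knockout cells and 350.5 CPM in parental cells, and HIF1A had 30.6 CPM in double-knockout, 295 CPM in VHL-restored and 71.2 CPM in parental cells. VHL had 687 CPM in VHL-restored cells and 39.1 CPM in parental cells. The 10 identity markers of kidney carcinoma included PAX8 itself. Among them CA9 had no count in double-knockout or VHL-restored cells and 1 count in parental cells. The other markers were detected in each group. The summed level of the 10 markers was 6856 to 6868 CPM in double-knockout, 5940 to 6305 CPM in VHL-restored and 8720 to 8761 CPM in parental libraries, most of it from VIM.

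In double-knockout cells PAX2, WT1, LHX1 and PAX8 rose and HNF4G and ZNF704 fell. Among the factors above 1 CPM, these changes ran in size from 9.31-fold for PAX2 to 1.21-fold for PAX8. In VHL-restored cells PAX8 and WT1 rose, and LHX1 and HNF4G fell. By edgeR's quasi-likelihood test with Benjamini-Hochberg adjustment over all genes, 6 of the 7 factors passed 0.05 in double-knockout against parental cells, where 54.1% of all tested genes did. In VHL-restored against parental cells 4 of 7 passed, beside 54.2% of all genes, and in double-knockout against VHL-restored cells 6 of 7 passed, beside 56.0%. In that last comparison 3 factors were higher and 3 lower, beside 28.0% and 28.0% of all genes. The libraries of the compared groups did not overlap for 6 of 7 factors in double-knockout against parental cells, beside 71.6% of all genes. They did not overlap for 7 of 7 in VHL-restored against parental cells, beside 72.2%, and for 7 of 7 between the engineered lines, beside 72.6%. These shares of factors are counts over few genes in comparisons where most genes were called. In bulk RNA, fewer cells that express a gene and less of its RNA per cell cannot be told apart.

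**Figure D1:**
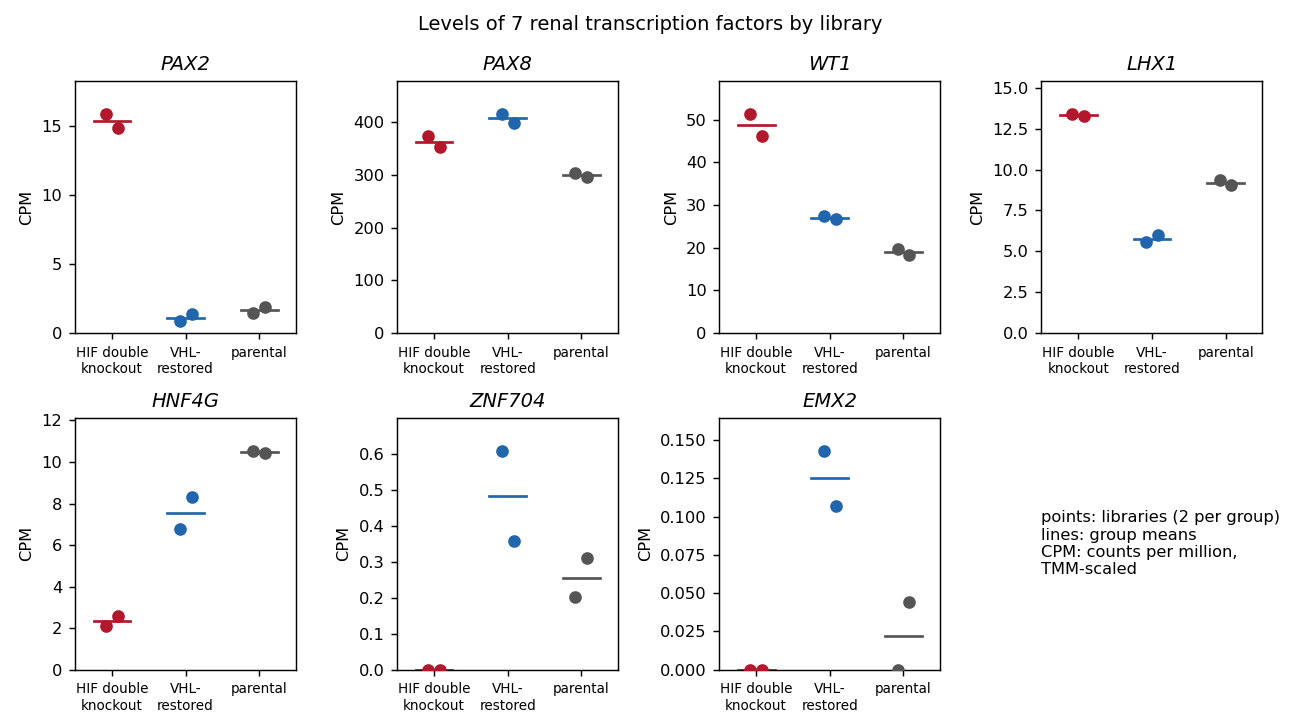
Level of each factor in each library, in CPM on a linear axis that starts at 0, for double-knockout, VHL-restored and parental cells (points are libraries, 2 per group, and lines are group means). PAX2 stands at 14.8 and 15.9 CPM in double-knockout libraries against at most 1.85 CPM elsewhere, and ZNF704 and EMX2 lie below 1 CPM in every library.

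PAX2 showed the largest rise of the factors in double-knockout cells. It had 15.9 and 14.8 CPM in double-knockout libraries (464 and 382 counts), 0.858 and 1.36 CPM in VHL-restored libraries (24 and 38 counts), and 1.48 and 1.85 CPM in parental libraries (44 and 42 counts). Both double-knockout libraries were far above the other 4, while VHL-restored and parental libraries lay close to each other without overlapping. The mean was 15.4 ± 0.726 CPM in double-knockout and 1.67 ± 0.261 CPM in parental cells (SD, n = 2 each), which is 3.22 on the log2 scale with an SE of 0.18 (adjusted p = 5.38e-18, edgeR). Among 12901 genes with at least 1 CPM in either group, PAX2 held rank 83 from the highest log2 fold change.

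In VHL-restored cells PAX2 averaged 1.11 ± 0.353 CPM (SD, n = 2), a log2 fold change of -0.57 against parental cells that did not pass (adjusted p = 0.0520, edgeR, 95% interval -1.06 to -0.08 without adjustment). This comparison rested on 62 counts in VHL-restored and 86 counts in parental cells. Without VHL-restored replicate 2 it passed, at -0.93 (adjusted p = 0.00718, edgeR), and without VHL-restored replicate 1 it was -0.28 (adjusted p = 0.460, edgeR). Double-knockout cells exceeded VHL-restored cells by 3.79 ± 0.20 on the log2 scale (SE, adjusted p = 4.84e-19, edgeR).

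Since PAX2 had the largest change in double-knockout cells among the factors above 1 CPM, the sequences upstream of its annotated starts are shown, as 250 bases before each of 2 RefSeq starts (GRCh38.p14). The letters searched were ACGTG and GCGTG, the core bound by HIF dimers, on both strands, and capitals mark each match. The counts do not say from which start the PAX2 transcripts began.
PAX2, chr10:100735146-100735395, plus strand: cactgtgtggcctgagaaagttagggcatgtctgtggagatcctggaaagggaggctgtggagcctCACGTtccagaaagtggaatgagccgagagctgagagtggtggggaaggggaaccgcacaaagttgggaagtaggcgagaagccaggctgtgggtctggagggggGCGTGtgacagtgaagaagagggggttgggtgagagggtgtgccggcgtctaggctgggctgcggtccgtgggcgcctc
PAX2, chr10:100745332-100745581, plus strand: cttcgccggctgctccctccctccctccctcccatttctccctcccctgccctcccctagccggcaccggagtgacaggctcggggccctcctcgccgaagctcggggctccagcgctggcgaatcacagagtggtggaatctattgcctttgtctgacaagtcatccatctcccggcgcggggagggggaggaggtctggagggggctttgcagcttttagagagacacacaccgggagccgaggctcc
The first window held ACGTG on the opposite strand, shown as CACGT, and GCGTG on the same strand. Their leftmost bases as shown lie 184 and 79 bases before the start. The second window held neither core. Among 35116 RefSeq windows of the same length, 18.5% held ACGTG, 32.2% held GCGTG and 43.2% held at least 1 of them. The overlapping letters CACGTG were in neither PAX2 window and in 6.34% of all windows. RefSeq windows were also matched for PAX8, EMX2 and WT1, and none was matched for HNF4G, LHX1 and ZNF704. The windows of PAX8 and EMX2 held neither core, and of 4 WT1 windows 1 held ACGTG and 2 held GCGTG.

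PAX8 had the highest level of the factors in every library and changed little. It had 374 and 353 CPM in double-knockout libraries, 416 and 399 CPM in VHL-restored libraries, and 305 and 297 CPM in parental libraries. All 4 libraries of the engineered lines were above both parental ones, and the VHL-restored libraries were the highest. PAX8 rose 1.21-fold in double-knockout cells (log2 fold change 0.27 ± 0.06 SE, adjusted p = 0.000107, edgeR) and 1.35-fold in VHL-restored cells (0.44 ± 0.06, adjusted p = 6.23e-08, edgeR). Of all tested genes, rare ones included, 69.0% had a larger absolute change in double-knockout cells and 55.5% in VHL-restored cells. Among genes with at least 1 CPM in either group, PAX8 held rank 4132 of 12901 from the highest log2 fold change in double-knockout cells. In VHL-restored cells PAX8 held rank 2926 of 12989. The 2 engineered lines differed by -0.16 ± 0.06, lower in double-knockout cells (adjusted p = 0.0126, edgeR), and this call was lost without double-knockout replicate 2, at -0.12 (adjusted p = 0.134, edgeR).

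Per kilobase of exon (GENCODE 29 exon length), PAX2 made up 4.10% and 4.06% of the summed PAX2 and PAX8 level in double-knockout libraries. The share was 0.207% and 0.341% in VHL-restored libraries and 0.487% and 0.624% in parental libraries. PAX8 therefore stayed the main paired box transcript of this pair throughout, at 23.4 and 23.7 times the PAX2 level in double-knockout and 204 and 159 times in parental libraries.

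WT1 rose in both engineered lines. It had 51.3 and 46.1 CPM in double-knockout libraries, 27.4 and 26.7 CPM in VHL-restored libraries, and 19.6 and 18.3 CPM in parental libraries. The groups did not overlap, with double-knockout cells highest and parental cells lowest. WT1 rose 2.57-fold in double-knockout cells (log2 fold change 1.36 ± 0.08 SE, adjusted p = 3.1e-15, edgeR) and 1.42-fold in VHL-restored cells (0.51 ± 0.09, adjusted p = 7.09e-06, edgeR). Double-knockout cells exceeded VHL-restored cells by 0.85 ± 0.08 (adjusted p = 6.29e-11, edgeR).

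WT1-AS, the noncoding gene antisense to WT1, had 4.17 and 4.31 CPM in double-knockout, 4.83 and 3.72 CPM in VHL-restored and 2.63 and 1.76 CPM in parental libraries. It rose in double-knockout cells (log2 fold change 0.92 ± 0.19 SE) and in VHL-restored cells (0.93 ± 0.19), and edgeR gave adjusted p = 7.5e-05 and 6.1e-05. Between the engineered lines WT1-AS did not pass (-0.01 ± 0.16, adjusted p = 0.996, edgeR), whereas WT1 did. The counting is not stated to use strand, so reads of this pair may be split between them. WT1-AS had 122 and 111 counts in double-knockout, 135 and 104 in VHL-restored and 78 and 40 in parental libraries, each far below the WT1 count of its library.

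LHX1 was the factor that passed the test in opposite directions in the engineered lines. It had 13.4 and 13.3 CPM in double-knockout libraries, 5.58 and 5.97 CPM in VHL-restored libraries, and 9.33 and 9.04 CPM in parental libraries. Parental cells lay between the engineered lines, and no libraries of different groups overlapped. LHX1 rose 1.45-fold in double-knockout cells (log2 fold change 0.54 ± 0.10 SE, adjusted p = 4.79e-05, edgeR) and fell 1.59-fold in VHL-restored cells (-0.67 ± 0.12, adjusted p = 1.13e-05, edgeR). The direct comparison gave 2.31-fold more LHX1 in double-knockout than in VHL-restored cells (adjusted p = 5.4e-11, edgeR).

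EMX2 was at the limit of detection. It had 0 and 0 counts in double-knockout libraries, 4 and 3 in VHL-restored libraries, and 0 and 1 in parental libraries, where 3 counts correspond to 0.101 to 0.132 CPM in a single library. The ratio of VHL-restored to parental cells was 6.55 with an exact 95% counting interval of 0.842 to 295.2, which covers counting error only, and did not pass (adjusted p = 0.189, edgeR). With the floor of 3 counts in place of 0 for the double-knockout group, EMX2 was 2.29-fold lower there than in VHL-restored cells. This value leaves out the counting error of the VHL-restored counts, and the difference did not pass (adjusted p = 0.0504, edgeR). Double-knockout and parental cells were both under the floor, so no fold is given. Its antisense neighbour EMX2OS had 0 and 0 counts in double-knockout, 2 and 4 in VHL-restored and 0 and 0 in parental libraries.

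HNF4G, a nuclear receptor, had the largest fall in double-knockout cells among the factors above 1 CPM. It had 2.09 and 2.56 CPM in double-knockout libraries (61 and 66 counts), 6.80 and 8.29 CPM in VHL-restored libraries (190 and 232 counts), and 10.5 and 10.5 CPM in parental libraries (313 and 237 counts). The order was the same for every library, with double-knockout cells lowest and parental cells highest. HNF4G fell 4.54-fold in double-knockout cells (log2 fold change -2.18 ± 0.16 SE, adjusted p = 3.71e-14, edgeR) and 1.39-fold in VHL-restored cells (-0.48 ± 0.12, adjusted p = 0.000903, edgeR). Double-knockout cells were 3.26-fold below VHL-restored cells (adjusted p = 3.38e-11, edgeR). Among the 12901 genes with at least 1 CPM in double-knockout or parental cells, HNF4G held rank 553 from the lowest log2 fold change.

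ZNF704 had no count in either double-knockout library, 17 and 10 counts in VHL-restored libraries, and 6 and 7 counts in parental libraries. These are 0.608 and 0.357 CPM in VHL-restored and 0.202 and 0.309 CPM in parental libraries, so ZNF704 was rare in each group. ZNF704 was lower in double-knockout than in parental cells (adjusted p = 0.00227, edgeR) and than in VHL-restored cells (adjusted p = 5.83e-05, edgeR). With the floor of 3 counts in place of 0 for the double-knockout group, the differences were 4.55-fold and 8.85-fold. These values leave out the counting error of the parental and VHL-restored counts, so they are not lower limits. VHL-restored and parental cells had a ratio of 1.94, with an exact 95% counting interval of 0.969 to 4.10, and did not pass (adjusted p = 0.177, edgeR).

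**Figure D2:**
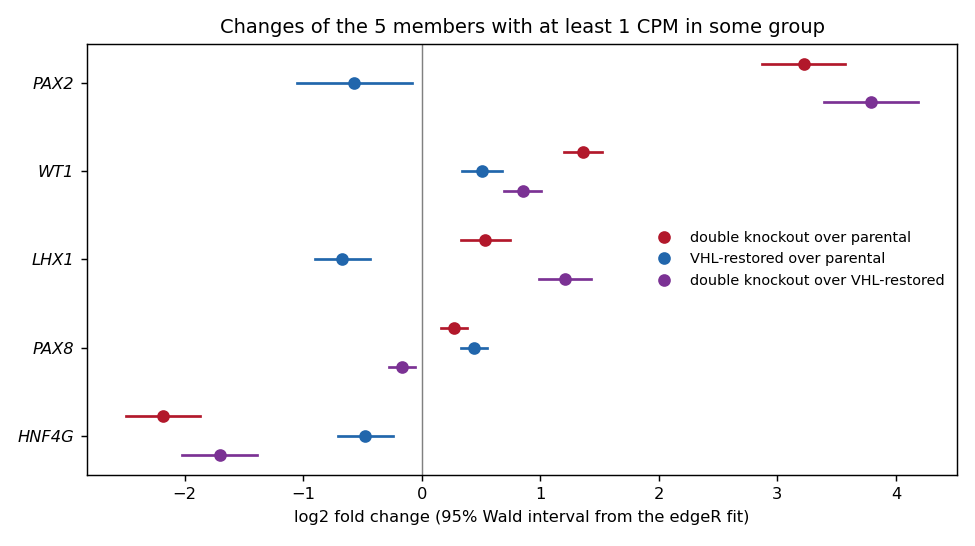
Log2 fold change of the 5 factors with at least 1 CPM in some group (points) with the 95% Wald interval of the edgeR fit (lines), for the 3 comparisons. PAX2 has the largest values, 3.22 and 3.79 in the comparisons of double-knockout cells, HNF4G lies at -2.18, -0.48 and -1.70, and LHX1 lies on opposite sides of 0 in the comparisons with parental cells.

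The order of the factors by level per kilobase of exon differed between the groups. In double-knockout cells the mean level was 85.8 CPM per kb for PAX8, 14.3 for WT1, 3.90 for LHX1, 3.65 for PAX2 and 0.522 for HNF4G. VHL-restored cells had 96.2 CPM per kb for PAX8, 7.94 for WT1, 1.69 for both HNF4G and LHX1, and 0.263 for PAX2. Parental cells had 71.0 CPM per kb for PAX8, 5.56 for WT1, 2.68 for LHX1, 2.36 for HNF4G and 0.396 for PAX2. PAX2 thus ranked above HNF4G in double-knockout cells and below it in the other groups. HNF4G and LHX1 overlapped between libraries in VHL-restored cells, with 1.53 and 1.86 against 1.63 and 1.74 CPM per kb, and no other neighbours among these 5 factors overlapped. ZNF704 and EMX2 were below 0.05 CPM per kb in every group.

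**Figure D3:**
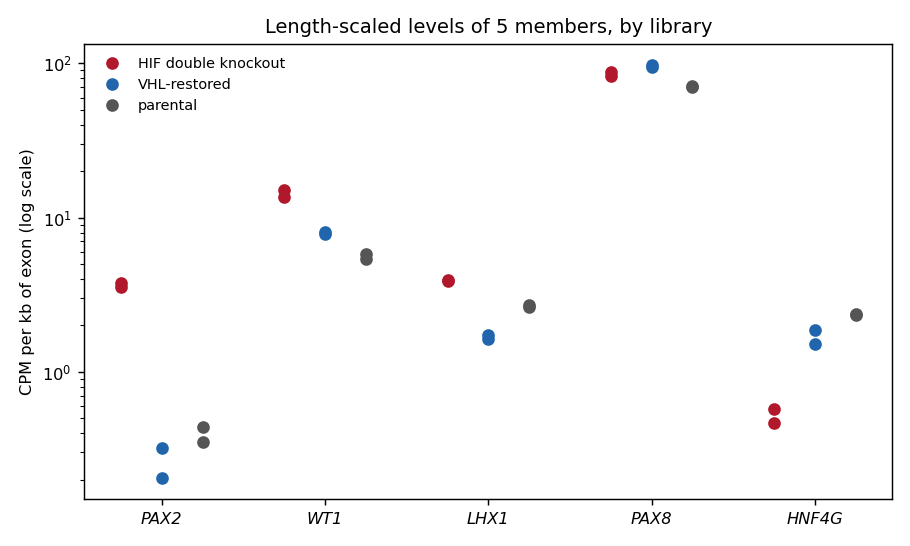
Level per kilobase of exon, on a log axis, of the 5 factors with at least 1 CPM in some group, with 1 point per library. PAX8 is highest in each group, between 70.1 and 98.2 CPM per kb, and PAX2 and HNF4G exchange places between double-knockout cells and the other groups.

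The genes with the most similar pattern were taken as the 3 nearest to each factor by their pair of log2 fold changes against parental cells, among 13141 other genes with at least 1 CPM in some group. The measure is a distance over 3 groups, it uses the same libraries as the values above, and both fold changes share the parental libraries. For PAX2 these included MAB21L3 at a distance of 0.06 and NEGR1, a neuronal adhesion protein, at 0.23. MAB21L3 was rare, with 2.95 CPM in double-knockout, 0.197 CPM in VHL-restored and 0.316 CPM in parental cells, so its distance is imprecise. NEGR1 had 10.7 CPM in double-knockout, 0.787 CPM in VHL-restored and 1.04 CPM in parental cells. For HNF4G they were the zinc finger factor KLF9 at 0.06, the receptor tyrosine kinase ERBB2 at 0.12, and the circadian factor DBP at 0.12. PAX2 and HNF4G each had 1 gene within a distance of 0.1, whereas PAX8 had 166 such genes, LHX1 22 and WT1 8. The nearest were PFDN6, TOR2A and SYK for PAX8, DOPEY2, SUMO3 and ABL2 for LHX1, and EXOSC1, PTPRJ and TBC1D4 for WT1.

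Paralogs of the factors moved in both directions. Of 13 paralogs tested, 2 rose and 6 fell in double-knockout against parental cells, where 26.6% of all genes rose and 27.5% fell. In VHL-restored against parental cells 4 rose and 4 fell, beside 26.5% and 27.7% of all genes. The medians of the list were -0.44 and 0.43 on the log2 scale, beside 0.00 over all genes in both comparisons. Over the paralogs with at least 1 CPM they were -0.45 (8 genes) and -0.003 (7 genes), so the positive median in VHL-restored cells was not seen among the more abundant paralogs. PAX9, a paired box factor of tooth and thymus development, had 1.37 and 1.40 CPM in double-knockout, 0.286 and 0.214 CPM in VHL-restored and 0.708 and 0.617 CPM in parental libraries. It rose by 1.04 ± 0.31 in double-knockout cells and fell by 1.40 ± 0.47 on the log2 scale in VHL-restored cells (edgeR, adjusted p = 0.00406 and 0.00749). LHX4, a LIM homeodomain factor of the pituitary, had 3.59 and 3.61 CPM in double-knockout against 0.337 and 0.353 CPM in parental libraries, a rise of 3.37 ± 0.38 (adjusted p = 1.72e-11, edgeR). LHX4 had 0.465 and 1.04 CPM in VHL-restored libraries, where it rose by 1.12 ± 0.43 (adjusted p = 0.0217, edgeR).

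PAX6, the paired box factor of eye development, rose in VHL-restored cells by 1.45 ± 0.13 (adjusted p = 2.1e-11, edgeR) and was 0.26 ± 0.14 in double-knockout cells, which did not pass (adjusted p = 0.139, edgeR). EMX1, the close relative of EMX2, fell by 1.83 ± 0.50 in double-knockout cells (adjusted p = 0.000881, edgeR). In VHL-restored cells EMX1 rose by 1.08 ± 0.30 (adjusted p = 0.00202, edgeR). It had 5 and 6 counts in double-knockout, 46 and 40 in VHL-restored and 22 and 16 in parental libraries. Its mean lay below 1 CPM in double-knockout and parental cells, at 0.202 and 0.724 CPM. ZNF395, the relative of ZNF704, was far more abundant than it, with 29.6 and 29.8 CPM in double-knockout, 60.1 and 61.5 CPM in VHL-restored and 583 and 560 CPM in parental libraries. ZNF395 fell 19.2-fold in double-knockout cells and 9.40-fold in VHL-restored cells (edgeR, adjusted p = 3.75e-30 and 6.62e-28). The early growth response factors EGR1 and EGR2, whose zinc fingers resemble those of WT1, fell in both lines, EGR1 by 3.44 and 1.32 and EGR2 by 1.07 and 2.05 on the log2 scale in double-knockout and VHL-restored cells.

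Partner proteins and coregulators of the factors were also read from a list. Of 19 tested, 6 rose and 8 fell in double-knockout cells, and 5 rose and 7 fell in VHL-restored cells, with medians of -0.05 and 0.04. The share called was 73.7% and 63.2%, beside 54.1% and 54.2% of all genes, and the medians over the 16 with at least 1 CPM were -0.21 and -0.13. PPARGC1A, a coactivator of HNF4 receptors, had 0.0684 and 0.311 CPM in double-knockout, 0.0715 and 0 CPM in VHL-restored and 45.9 and 44.1 CPM in parental libraries. SSBP2, a partner of the LIM cofactor LDB1, fell by 2.27 ± 0.29 in double-knockout and by 1.53 ± 0.24 in VHL-restored cells. BASP1, a corepressor of WT1, rose by 0.41 ± 0.06 in double-knockout cells and fell by 0.84 ± 0.06 in VHL-restored cells. TLE4, a corepressor that binds PAX factors, rose in both, by 1.22 ± 0.08 and 2.23 ± 0.08, and NCOA1, a coactivator of nuclear receptors, fell by 0.90 ± 0.10 in double-knockout and rose by 0.78 ± 0.08 in VHL-restored cells (all adjusted p at or below 1.16e-06, edgeR).

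Among other transcription factors of kidney and nephron, 33 were tested, of which 8 rose and 13 fell in double-knockout cells and 13 rose and 10 fell in VHL-restored cells. The share called was 63.6% and 69.7%, beside 54.1% and 54.2% of all genes. The medians were -0.20 and 0.25 on the log2 scale, and -0.37 (22 genes) and 0.05 (23 genes) over those with at least 1 CPM. SALL1, a zinc finger factor of nephron progenitors, had 0.376 and 0.350 CPM in double-knockout, 20.0 and 17.4 CPM in VHL-restored and 44.4 and 37.6 CPM in parental libraries, and fell 112-fold in double-knockout cells (adjusted p = 8.88e-25, edgeR). POU3F3, a factor of the distal nephron, fell 10.6-fold in double-knockout and 10.8-fold in VHL-restored cells, and IRX3 fell 7.65-fold and 3.73-fold. SOX9, a factor of tubule repair, rose 3.83-fold in double-knockout and 3.93-fold in VHL-restored cells. ELF3, an epithelial factor, fell 3.08-fold in double-knockout cells and rose 3.81-fold in VHL-restored cells.

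Genes of the proximal tubule and genes regulated by hepatocyte nuclear factors were read beside HNF4G. Of 37 tested, 2 rose and 9 fell in double-knockout cells and 4 rose and 7 fell in VHL-restored cells, with medians of -0.56 and 0.00, and in each comparison at most 11 of the 37 reached 1 CPM. The share called was 29.7% in each comparison, below the 54.1% and 54.2% of all genes. Over the genes with at least 1 CPM the medians were -0.91 (10 genes) and 0.47 (11 genes). PDZK1, a scaffold of apical transporters, had 2.87 and 2.41 CPM in double-knockout, 45.9 and 49.1 CPM in VHL-restored and 86.4 and 80.9 CPM in parental libraries. It fell 31.5-fold in double-knockout and 1.76-fold in VHL-restored cells. CUBN, the receptor cubilin, fell 12.8-fold in double-knockout and 8.01-fold in VHL-restored cells. SERPINA1, the gene of alpha-1 antitrypsin, and SLC17A3, a urate transporter, fell 3.28-fold and 3.48-fold in double-knockout cells and rose 4.01-fold and 5.69-fold in VHL-restored cells (all adjusted p at or below 1.33e-07, edgeR).

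**Figure D4:**
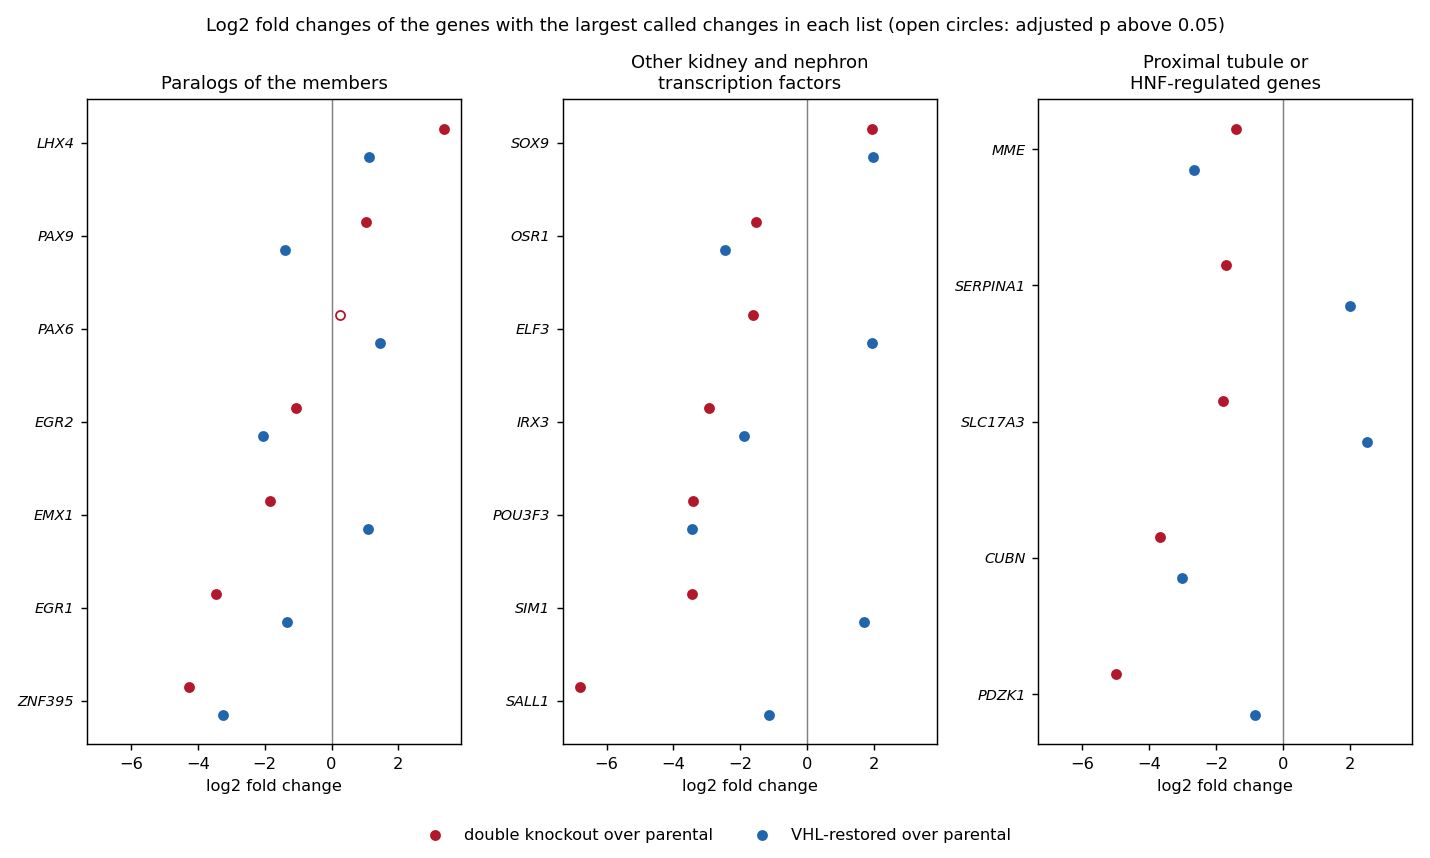
Log2 fold changes against parental cells for the genes with the largest called changes, by the rule for named genes, in 3 lists: paralogs of the factors, other kidney and nephron transcription factors, and proximal tubule or HNF-regulated genes (red, double-knockout cells; blue, VHL-restored cells; filled, adjusted p at or below 0.05; open, above it). The values run from -6.80 for SALL1 to 3.37 for LHX4 in double-knockout cells, and several genes, such as ELF3, SERPINA1 and PAX9, lie on opposite sides of 0 in the 2 comparisons.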

How the data were processed

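Poly(A) RNA of 6 RCC10 libraries was prepared with a Kapa kit, per the labels' protocols. The authors deposited 1 table of counts per gene symbol. The table is titled as normalized, yet every value is a whole number and the library totals are unequal, and the values were read as raw counts. The submitters' processing notes name HISAT2 2.2.1, FastQC 0.74, Trimmomatic 0.39, limma 3.58.1 and featureCounts 2.0.8, and both hg38 and hg19 without saying which applies. The sources used here do not give strandedness.

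The counts were fitted with edgeR 4.0.16 in R 4.3.3 by the quasi-likelihood test, in 1 model of 3 group means over all 6 libraries. Libraries were scaled by TMM (factors 0.977 to 1.02), genes needed at least 1 count in all, and p-values were adjusted by Benjamini-Hochberg over 18273 genes. The biological coefficient of variation was 4.41%. CPM are counts per 1000000 of the TMM-scaled library, and the SE is the Wald error of the fit. Counting intervals are exact at 95%, and the floor is 3 counts. Replicates of every group differed beyond counting error (chi-square divided by its degrees of freedom, 2.58 or more). The procedure was tested on simulated data with 50 genes changed per fold size, far fewer than were called here. Over the 3 comparisons it recovered 18% to 36% of 1.2-fold changes and 82% to 98% of 1.5-fold changes. The changed genes were drawn from those with a mean of at least 1 CPM, so the recovery does not cover ZNF704 or EMX2. False calls were 0.667% to 5.85% of the calls.

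The factors and the gene lists were chosen with earlier results of these data known. Listed symbols were matched for 186 of 221 genes. Genes are named by a fixed rule: the factors, the engineered genes, up to 3 genes per list and comparison with the largest called change, non-overlapping libraries and at least 1 CPM, and the 3 nearest patterns per factor. Some genes that the rule names are not reported here. Promoter windows are from RefSeq (GRCh38.p14), and exon lengths from GENCODE 29. Alternatives were DESeq2 1.42.0 size factors or test, limma-voom, filterByExpr, median centring, pairwise fits, a replicate block, and leaving out each library.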

Additional observations from a re-analysis of the deposited data

How the results depend on the processing

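Over 20 fold changes of the factors and 258 refits in all, 246 kept their direction and their side of 0.05, 11 passed where the reported fit did not, 1 lost its call and 0 changed sign. The call that was lost is that of PAX8 between the engineered lines without double-knockout replicate 2, given above. PAX2 in VHL-restored against parental cells passed with DESeq2 size factors (-0.57, adjusted p = 0.0498), with the filterByExpr filter (-0.56, adjusted p = 0.0460) and without VHL-restored replicate 2, and not with the DESeq2 test (adjusted p = 0.0994) or limma-voom (adjusted p = 0.0934). EMX2 between the engineered lines passed in 6 of 12 refits, with adjusted p between 0.00197 and 0.159, and in VHL-restored against parental cells it passed with limma-voom (adjusted p = 0.0158). The filterByExpr filter removes EMX2, so it gives no value there. The cause was not tested. Leaving out each library gave 6 called factors in double-knockout against parental cells throughout, 4 to 5 in VHL-restored against parental cells and 5 to 7 between the engineered lines. The counts of called genes were 7974 to 10134, 7891 to 9671 and 9019 to 9679.

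Libraries share replicate numbers across groups, and with 2 numbers these do not show pairing. Across 12664 genes (not independent of each other) the correlation of replicate deviations was 0.17 between parental and double-knockout cells, -0.006 between parental and VHL-restored cells and 0.02 between the engineered lines. With a replicate block PAX2 in VHL-restored against parental cells was -0.57 (adjusted p = 0.0326), which passed, and no other call on a factor changed. Depth limits EMX2 and ZNF704, with at most 17 counts in a library.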

Other observations

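The shares of genes called below stand beside 54.1% of all genes in double-knockout against parental cells and 54.2% in VHL-restored against parental cells. Genes of the distal nephron were mostly rare, with 3 of 15 at 1 CPM or more. Of the 15 distal nephron and collecting duct genes tested, 5 were called in double-knockout cells, each lower, and 4 rose and 3 fell in VHL-restored cells by edgeR, a share of 33.3% and 46.7%. The medians were -0.06 and 0.00 on the log2 scale, and -1.93 and 2.01 over the 3 genes with at least 1 CPM. CDH16, the kidney cadherin that PAX8 activates in thyroid cells, had 1.64 and 1.83 CPM in double-knockout, 21.1 and 23.2 CPM in VHL-restored and 31.9 and 28.7 CPM in parental libraries. SCNN1A, a subunit of the epithelial sodium channel, fell 2.25-fold in double-knockout cells and rose 5.18-fold in VHL-restored cells, and SLC12A3, the thiazide-sensitive cotransporter, fell 3.81-fold and rose 4.03-fold. Of 15 podocyte and WT1-regulated genes, 5 rose and 6 fell in double-knockout cells and 1 rose and 7 fell in VHL-restored cells, a share of 73.3% and 53.3%, the second close to that of all genes. The medians were -1.30 and -0.40, and -2.11 and -1.35 over the 10 genes with at least 1 CPM. PTPRO, a podocyte phosphatase, fell 25.2-fold and 13.8-fold, while AREG, the EGF receptor ligand amphiregulin that WT1 can activate, rose in both, with 2.05 and 1.40 CPM in double-knockout, 2.58 and 2.18 CPM in VHL-restored and 0.101 and 0.132 CPM in parental libraries. CDKN1C, a cell cycle inhibitor, rose 2.55-fold in double-knockout and fell 2.62-fold in VHL-restored cells. By the rule for named genes, the largest changes of this list were falls. They were IGF2 in double-knockout cells (log2 fold change -7.38, adjusted p = 6.53e-22, edgeR) and SPRY1 in VHL-restored cells (-4.80, adjusted p = 4.24e-09, edgeR).

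Of 15 genes linked to PAX2, PAX8 or kidney branching, 5 rose and 7 fell in double-knockout cells and 5 rose and 8 fell in VHL-restored cells, a share of 80.0% and 86.7%. The medians were -0.52 and -0.46, but -0.08 and 0.23 over the 10 genes with at least 1 CPM, so the sign in VHL-restored cells depends on the rare genes. CP, the ceruloplasmin gene, had a mean of 0.978 CPM in double-knockout, 0.465 CPM in VHL-restored and 226 CPM in parental cells. WNT7B, a secreted Wnt ligand, fell 1.44-fold in double-knockout cells and rose 23.1-fold in VHL-restored cells. Of the 10 identity markers of kidney carcinoma, 3 rose and 6 fell in double-knockout cells and 4 rose and 5 fell in VHL-restored cells, a share of 90.0% in each. Their medians were -1.33 and -0.59, and -1.25 and -0.46 over the 9 with at least 1 CPM. PAX8 is itself among these markers, and some genes, such as CDH16, stand in more than 1 list.

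Markers of other cell types had summed levels far below those of the kidney carcinoma markers, which came mostly from VIM. In parental libraries the leukocyte sum and the fibroblast and pericyte sum were each above the level of every factor but PAX8. Of 8 leukocyte markers tested, 1 rose and 1 fell in each comparison with parental cells, which is 25% of them. PTPRC and CD3E had no count in any library, and the summed level of 10 markers in the table was 23.5 to 26.1 CPM in double-knockout, 25.2 to 27.7 CPM in VHL-restored and 61.4 to 65.9 CPM in parental libraries, mostly from CD68. Of 3 endothelial markers tested, the calls against parental cells came to 1, a rise in VHL-restored cells (33.3%), with a summed level of at most 1.86 CPM and no PECAM1 or KDR count. Of 8 fibroblast and pericyte markers, 1 rose and 3 fell in double-knockout cells and 2 rose and 2 fell in VHL-restored cells, which is 50% of them in each comparison, with sums of 35.9 CPM, 51.2 to 52.3 CPM and 55.5 to 56.2 CPM in double-knockout, VHL-restored and parental libraries. Their part in the levels of the factors was not tested.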
